A study of Mus musculus with 192 samples.

Results

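The Ifit genes encode interferon-induced proteins with tetratricopeptide repeats. The members described here were taken by symbol from the deposited count table and are Ifit1, Ifit2, Ifit3 and Gm14446, which make up 4 of its 23481 genes. Each was read in all 64 conditions. The cells were dendritic cells grown from the bone marrow of female C57BL/6J mice, 6 to 8 weeks old, in GM-CSF at 15 ng/mL, and 100000 cells were plated per well. They were stimulated for 6 h, and all conditions share this strain, culture and time. The control group is named Ctrl, and the labels name 7 ligands of innate immune receptors: PAM, LPS (lipopolysaccharide), HMW, Zymosan (zymosan depleted), SeV, cGAMP (3',3'-cGAMP) and CpGB. Each ligand was given alone, and all 21 pairs and 35 triplets were tested, with 3 libraries a condition. Names of conditions join the ligands, so PAM_cGAMP received PAM and cGAMP. Separate cultures or animals behind the 3 libraries are not stated in the labels, so p-values measure only the spread between these libraries, which may be technical.

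Type I interferon is secreted by cells whose sensors detect microbial nucleic acids or, for some receptors, bacterial wall components. It signals through its receptor, the kinases Jak1 and Tyk2 and transcription factors that bind interferon-stimulated response elements in the promoters of target genes. Irf3, once activated by a sensor, can switch on some of these genes directly. Ifit1 binds viral RNA whose cap lacks methylation and blocks its translation, Ifit2 and Ifit3 form complexes with other Ifit proteins, and Ifit3 stabilises Ifit1 in some species. In current annotation Gm14446 is named Ifit1bl1, for its likeness to Ifit1, and its function was not taken as known here.

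The members lie beside each other on mouse chromosome 19. In the GENCODE annotation of GRCm38, Ifit2 spans chr19:34550694-34576419 on the plus strand and Ifit3 spans chr19:34583531-34588731 on the plus strand. Gm14446 follows at chr19:34592891-34601956 on the minus strand, and Ifit1 lies at chr19:34640871-34650009 on the plus strand. I830012O16Rik (now Ifit3b, plus strand) and 2010002M12Rik (now Ifit1bl2, minus strand) sit between Gm14446 and Ifit1, so 6 family genes fill 99316 bases. Ifit3 and I830012O16Rik are near copies: 51.2% of the 50-base windows of the Ifit3 transcript also occur in I830012O16Rik, and 14.9% of the windows in its last 500 bases do. Reads from those stretches cannot be assigned to 1 of the pair, and how such reads were counted is not given in the sources used here. Ifit1 shares 7.06% of its windows with 2010002M12Rik, Gm14446 shares 6.51% with 2010002M12Rik and 0.744% with Ifit1, and Ifit2 shares none with the other 5 genes. RefSeq extends Ifit1bl1 across Ifit1 on the opposite strand, and whether strand was used in counting is not given in the sources used here, so reads of the overlap cannot be told apart.

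The promoters were read because the members moved together across most conditions. RefSeq windows (GRCm38.p6) from 250 bases before to 50 bases after each start were searched for GAAANNGAAA, a core of the interferon-stimulated response element, on both strands, so the capitals below read TTTCNNTTTC where the match is on the other strand. The motif occurred in 1131 of 32851 windows of the same length (3.44%), and 74 windows (0.225%) held 2 or more matches. Ifit1 had matches starting 104 and 85 bases upstream and Ifit3 had matches 156 and 122 bases upstream. I830012O16Rik carried the same 2 stretches of letters as Ifit3, at 188 and 154 bases. Gm14446 had 1 match, 104 bases upstream in the window shown, and 1 match 23 bases upstream in its other window. The letters were not present in either window of Ifit2, and sequence outside the windows was not searched. The sequences below cover bases 200 to 51 upstream of the start, written 5′ to 3′ on the strand of the gene, with the matches in capitals, and show the paired matches of Ifit1, Ifit3 and the Ifit3 copy beside the single match of Gm14446. A match describes the letters only, and binding was not measured.
Ifit1, chr19:34640689-34640838, plus strand: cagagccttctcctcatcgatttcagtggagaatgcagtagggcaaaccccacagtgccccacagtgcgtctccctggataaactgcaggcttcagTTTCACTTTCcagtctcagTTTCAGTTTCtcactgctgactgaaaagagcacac
Ifit3, chr19:34583329-34583478, plus strand: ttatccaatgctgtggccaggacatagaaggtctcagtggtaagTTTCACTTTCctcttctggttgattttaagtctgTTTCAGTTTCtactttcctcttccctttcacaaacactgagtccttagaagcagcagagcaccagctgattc
I830012O16Rik, chr19:34607757-34607906, plus strand: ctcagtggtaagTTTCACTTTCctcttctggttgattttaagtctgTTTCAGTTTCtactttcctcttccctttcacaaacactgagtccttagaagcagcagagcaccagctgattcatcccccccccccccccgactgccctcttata
Gm14446, chr19:34602019-34602168, minus strand: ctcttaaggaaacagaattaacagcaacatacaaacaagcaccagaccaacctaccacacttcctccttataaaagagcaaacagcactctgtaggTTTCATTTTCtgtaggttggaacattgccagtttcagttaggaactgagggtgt

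Totals ran from 46564 to 610234 counts a library, with a median of 171616.5, and Ctrl was shallow (73431 ± 14389, SD, n = 3). The members took 0.0623% of counts in Ctrl, the lowest share, and up to 1.41% in HMW_cGAMP. All 4 passed the filter on low counts, which kept 4720 genes. The 7 dendritic cell markers (Itgax, H2-Aa, H2-Ab1, Cd74, Flt3, Zbtb46 and Ccr7) all had counts and summed to 5043 to 7103 CPM (counts scaled to an equal library total) over the 64 conditions, although Flt3 and Zbtb46 were near 0 (medians 2.33 and 2.59 CPM). Of the macrophage markers 4 of 5 were in the table (Csf1r, Mrc1, Cd68 and C1qa). They summed to 793 CPM in LPS_cGAMP_CpGB, the lowest, and to 2499 CPM in Ctrl, the highest. Their sum was 1678 CPM with PAM, 1078 CPM with LPS, 2219 CPM with HMW and 1935 CPM with Zymosan. With SeV it was 1896 CPM, with cGAMP 1703 CPM and with CpGB 1344 CPM, so it did not simply run against the Ifit levels. Csf1r, with 26397 counts over the series, was its largest part. Neutrophil markers (5 of 6 in the table) summed to 518 to 961 CPM, 3 plasmacytoid markers to 21.2 to 232 CPM, B cell markers to at most 18.7 CPM and T and NK cell markers to at most 2.95 CPM, while erythroid markers were at 0. The plasmacytoid sum was higher with LPS (166 CPM), SeV (140 CPM) and cGAMP (151 CPM) than in Ctrl (50.6 CPM). That sum was nearly all Tcf4 (4128 counts over the series), while Siglech (35 counts) and Ccr9 (89 counts) were near 0, and the part of these cells in the Ifit values was not tested. In bulk libraries fewer cells of a type and less RNA per cell cannot be told apart. A few libraries stood apart from their group in the Ifit genes: PAM_HMW_Zymosan replicate 1 (high), PAM_LPS replicate 1 (low), PAM_HMW_SeV replicate 3 (high in Gm14446) and HMW_Zymosan replicate 3 (high). HMW replicate 2 and Zymosan replicate 2 were also high (0.234% of counts in the members against 0.136% and 0.103%, and 0.153% against 0.0788% and 0.0579%), and leaving out replicate 2 of every condition removes both. Where leaving out one of the first 4 changed a call of a ligand added to a background or of a pair, the result without it is given beside it.

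The first question was which ligand, given alone, raised the members over Ctrl. LPS, SeV, cGAMP and CpGB raised all 4, HMW raised Ifit1 and Ifit3, and neither PAM nor Zymosan passed the rule for any member. Ifit1 stood at 249, 212 and 192.03 CPM in the Ctrl libraries and at 5071, 5439.9 and 5825 CPM with cGAMP. It reached 3528, 3935 and 3991 CPM with LPS and 4119, 3625 and 3536 CPM with SeV. CpGB gave intermediate levels of 1174, 2027 and 1443 CPM. Every library of these 4 ligands lay far above Ctrl, and no CpGB library reached the lowest library of LPS, SeV or cGAMP. HMW gave 416, 677 and 349 CPM, PAM 295, 382 and 356 CPM and Zymosan 349.7, 569.5 and 209.9 CPM. The HMW and PAM libraries all lay above Ctrl by a small margin, and the Zymosan libraries overlapped it.

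Fitted over all 64 conditions with edgeR's quasi-likelihood test and Benjamini-Hochberg adjustment over the 4720 genes, a member was called at an adjusted p under 0.05 with a log2 fold change of at least 1. Ifit1 rose by 4.66 (SE 0.20, adjusted p = 3.94e-56) with cGAMP, 4.15 (SE 0.21, adjusted p = 1.18e-48) with LPS, 4.12 (SE 0.21, adjusted p = 2.62e-47) with SeV and 2.87 (SE 0.22, adjusted p = 1.16e-26) with CpGB. The HMW rise of Ifit1 was smaller, 1.18 (SE 0.25, adjusted p = 0.000912), and without HMW replicate 2 it was 0.85 and not called. With Zymosan the change was 0.77 (SE 0.27, adjusted p = 0.0488), under the fold threshold, and became a call of 1.17 without Zymosan replicate 3. With PAM it was 0.69 (SE 0.26, adjusted p = 0.0551). Scaling by library size alone, in place of TMM factors, shifts every change against Ctrl by -0.03 (HMW) to -0.30 (LPS), which turned the direction of none of these Ifit1 values.

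Ifit2 rose with the 4 strong ligands and was not called with HMW. Its Ctrl libraries held 139, 199.6 and 163 CPM. The cGAMP libraries held 3274, 3716 and 3185 CPM, SeV 3106, 3434 and 2941 CPM and LPS 2337, 2627 and 2805 CPM. CpGB libraries, at 659.9, 990.5 and 1074 CPM, lay between these and Ctrl without overlap. The fitted rises were 4.33 (SE 0.25, adjusted p = 4.74e-39) with cGAMP, 4.23 (SE 0.26, adjusted p = 2.13e-37) with SeV, 3.95 (SE 0.26, adjusted p = 5.31e-34) with LPS and 2.47 (SE 0.29, adjusted p = 7.06e-14) with CpGB. HMW gave 249, 511 and 199.8 CPM, above all 3 Ctrl libraries, but with 1 library high, and its change of 0.98 (SE 0.33, adjusted p = 0.155) was not called, though it was without HMW replicate 3 (1.29) and with no filter on low counts (1.14). PAM libraries at 197 to 236 CPM and Zymosan libraries at 117 to 429 CPM gave changes of 0.36 (adjusted p = 0.565) and 0.49 (adjusted p = 0.49).

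Ifit3 was called with HMW and with the 4 strong ligands. Ctrl libraries held 111, 187 and 106 CPM and HMW libraries 466, 758 and 302 CPM, with no overlap and a rise of 1.95 (SE 0.34, adjusted p = 1.46e-05). SeV gave 3383, 3794 and 3386 CPM and cGAMP 3796, 3640.2 and 3161 CPM. Those 2 sets of libraries overlapped each other and lay above every LPS library, at 2181, 2017 and 2054 CPM. CpGB gave 650.2, 959.9 and 1111 CPM, again between. The rises were 4.72 (SE 0.28, adjusted p = 6.32e-39) with cGAMP, 4.72 (SE 0.28, adjusted p = 1.01e-38) with SeV, 3.96 (SE 0.29, adjusted p = 4.96e-29) with LPS and 2.81 (SE 0.32, adjusted p = 1.61e-14) with CpGB. PAM libraries lay between 144 and 217 CPM and Zymosan libraries between 147.24 and 390.3 CPM, with changes of 0.44 (adjusted p = 0.544) and 0.87 (adjusted p = 0.177), the latter a call of 1.04 with no filter on low counts.

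Gm14446 was barely detected in the control cells, with 1, 1 and 2 counts in the Ctrl libraries (13.9, 12.5 and 19.2 CPM). SeV raised it to 1214, 1318 and 1135 CPM and cGAMP to 807, 976 and 878 CPM, with LPS at 551, 532 and 515 CPM and CpGB at 165, 199 and 392 CPM. None of these 12 libraries overlapped Ctrl, and SeV, cGAMP and LPS libraries fell in separate ranges, SeV highest. Because Ctrl held 4 counts in all, ratios are given with 95% intervals for counting error only. They were 77.4 (30.1 to 285) with SeV, 57.6 (22.3 to 212) with cGAMP, 34.0 (13.1 to 125) with LPS and 17.5 (6.70 to 65.2) with CpGB. HMW gave 58.2, 94.2 and 41.8 CPM, a ratio of 4.25 (1.53 to 16.4), which edgeR's quasi-likelihood test did not call (log2 fold change 2.03, adjusted p = 0.531). The fitted values, which depend on the prior count at this depth, were 6.22 (SE 0.56, adjusted p = 7.43e-21) with SeV, 5.77 (SE 0.59, adjusted p = 5.4e-17) with cGAMP, 5.02 (SE 0.65, adjusted p = 9.76e-12) with LPS and 4.04 (SE 0.75, adjusted p = 3.13e-06) with CpGB.

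**Figure D1:**
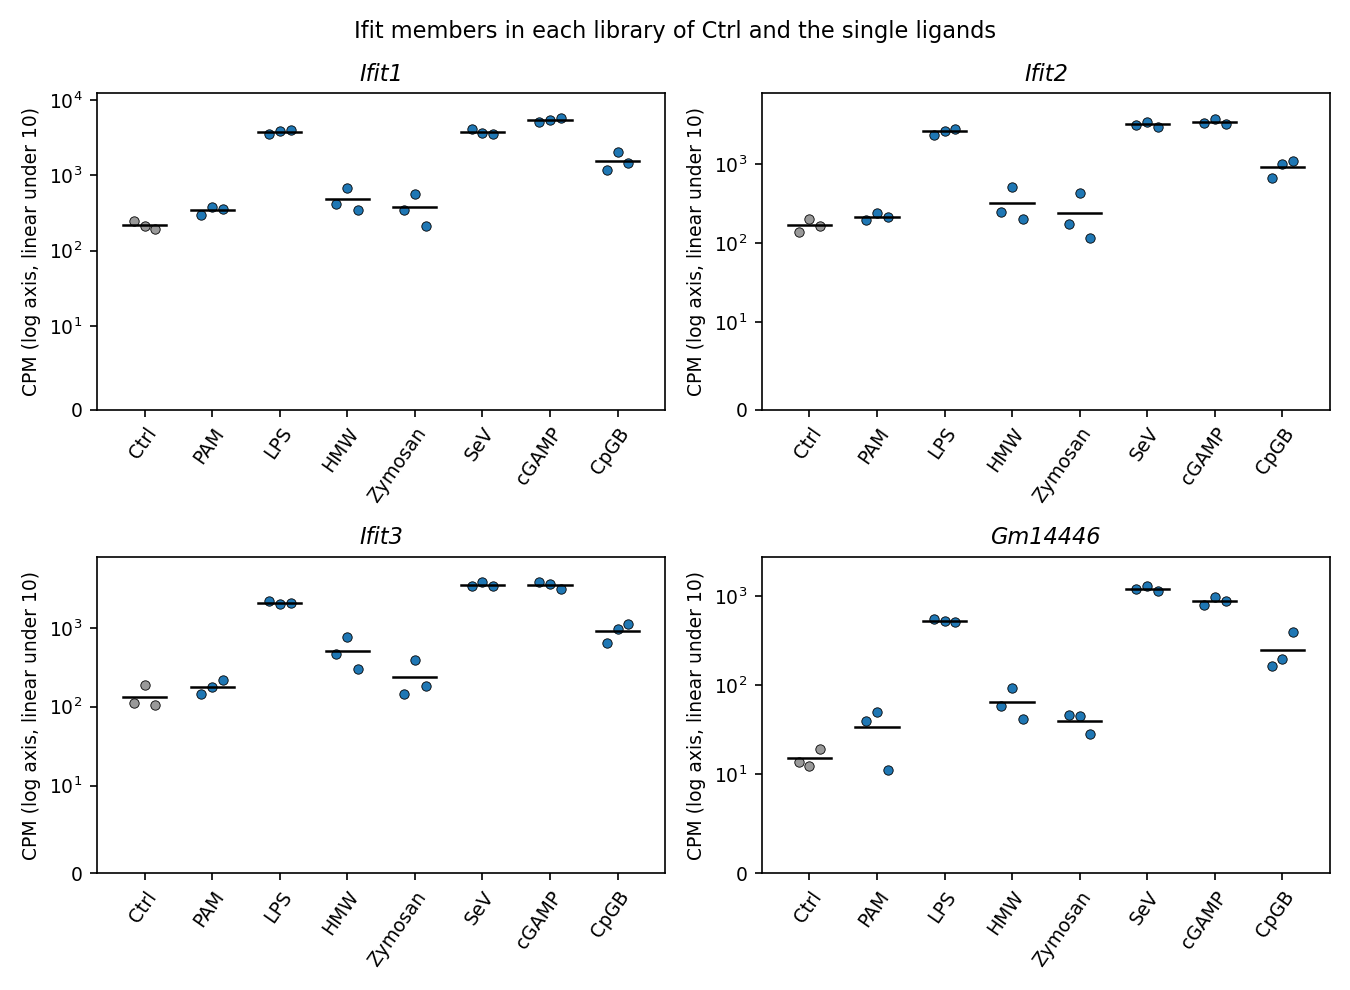
CPM of each Ifit member (vertical axis, logarithmic above 10) in Ctrl and the 7 single ligands; each point is 1 library and the bar is the mean of 3. LPS, SeV and cGAMP libraries sit far above Ctrl for every member, with CpGB lower. PAM, HMW and Zymosan have the lowest means of the ligands, though HMW and CpGB libraries overlap for Ifit3.

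Over the 4 members, 18 of 28 comparisons of a single ligand with Ctrl were called, all higher. Among all tested genes the share called higher was 14.6% with LPS, 10.5% with SeV, 11.7% with cGAMP and 10.8% with CpGB, where all 4 members were called. It was 0.953% with HMW, where 2 of 4 were called, and 8.01% with PAM and 4.43% with Zymosan, where none was.

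Single ligands were then compared directly, which does not use Ctrl. Of 84 such comparisons (21 a member), 61 were called, 15 for Ifit1, 15 for Ifit2, 16 for Ifit3 and 15 for Gm14446, against 13.7% of all tests of this kind over all genes. The LPS minus SeV difference of Ifit1 was not called (0.03, SE 0.13, adjusted p = 0.945). With LPS, Ifit3 and Gm14446 were lower than with SeV, at log2 differences of -0.76 (SE 0.17, adjusted p = 0.000323) and -1.20 (SE 0.25, adjusted p = 6.16e-05), the Ifit3 value staying under the fold threshold. For Ifit2 the same difference was -0.28 (SE 0.16, adjusted p = 0.307). Against cGAMP, LPS gave -0.51 (SE 0.13, adjusted p = 0.00243) for Ifit1, -0.76 (SE 0.17, adjusted p = 0.000271) for Ifit3 and -0.75 (SE 0.25, adjusted p = 0.0302) for Gm14446. SeV against cGAMP gave -0.54 (SE 0.13, adjusted p = 0.00935) for Ifit1 and 0.00 (SE 0.17, adjusted p = 1) for Ifit3. HMW gave a higher Ifit3 level than PAM, with a difference of PAM minus HMW of -1.51 (SE 0.27, adjusted p = 9.56e-07). For Ifit1 that difference was -0.49 (SE 0.19, adjusted p = 0.0611).

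The members sit in a wider interferon programme, described here by a list of 30 genes in 4 roles, of which 29 were tested (Ifna4, an interferon gene with 36 counts in all, was not). Among the ligand and receptor genes, Ifnb1, which encodes interferon beta, rose by 4.33 (SE 0.59, adjusted p = 1.91e-10) with SeV and 3.93 (SE 0.63, adjusted p = 5.73e-08) with cGAMP, while its change with LPS was 0.32 (adjusted p = 0.858) at a mean of 13.4 CPM. The receptor genes Ifnar1 and Ifnar2 were not called with any ligand. Among 8 kinases and factors, 6 rose with LPS, SeV and cGAMP, 4 with CpGB and 3 each with PAM, HMW and Zymosan. Irf7, a factor that amplifies interferon production, rose by 3.58 (SE 0.24, adjusted p = 6.36e-32) with LPS and 1.30 (SE 0.30, adjusted p = 0.00387) with HMW. Irf3 was not called with any of the 7. Of 3 inhibitors, Usp18, a brake on the interferon receptor, rose by 3.03 (SE 0.26, adjusted p = 2.77e-22) with cGAMP. Socs3, a feedback inhibitor of cytokine signalling, rose with PAM (2.93, SE 0.32, adjusted p = 4.13e-15), where Usp18 was not called (0.55, adjusted p = 0.313).

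All 15 antiviral target genes of that list rose with LPS, SeV, cGAMP and CpGB (median log2 changes 3.78, 3.53, 3.81 and 2.58), 5 rose with HMW (median 1.13), 5 with PAM (0.62) and 2 with Zymosan (0.67), and none fell. Medians over all tested genes lay between -0.09 and 0.03 in these comparisons. The counts for HMW and Zymosan are given with all libraries only, so they include replicate 2 of each, which was high in the Ifit genes. In edgeR's quasi-likelihood test Mx1 rose by 3.87 (SE 0.17, adjusted p = 6.48e-56) with LPS and by 1.17 (SE 0.19, adjusted p = 2.32e-06) with HMW. Oas3, which makes the activator of RNase L, rose in the same test by 3.54 (SE 0.35, adjusted p = 1.19e-18) and 1.62 (SE 0.44, adjusted p = 0.0318). Rsad2, which encodes viperin, rose by 4.22 (SE 0.19, adjusted p = 2.28e-53) with cGAMP, and its HMW value was 0.73 (SE 0.21, adjusted p = 0.0512). In all, 24 of the 29 genes rose with each of LPS, SeV and cGAMP, 22 with CpGB, 10 with PAM, 8 with HMW and 5 with Zymosan. Among all tested genes the share called higher was 14.6% with LPS, 10.5% with SeV, 11.7% with cGAMP and 10.8% with CpGB. It was 8.01% with PAM, 0.953% with HMW and 4.43% with Zymosan.

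Across all conditions the presence of LPS, SeV or cGAMP divided the order of the means of Ifit1, Ifit2 and Ifit3. These ligands gave the highest levels of the same genes when given alone, so the split is drawn from these data and only describes them. The 15 conditions that lacked all 3 of these ligands were the 15 lowest for each gene. For Ifit1 their means ran from 218 CPM (Ctrl) to 2899 CPM (HMW_Zymosan_CpGB), against 3453 CPM (Zymosan_SeV) to 7294 CPM (PAM_cGAMP) in the other 49. For Ifit2 the ranges were 149.9 CPM (PAM_Zymosan) to 1715 CPM (HMW_Zymosan_CpGB) and 2068 CPM (SeV_CpGB) to 3887 CPM (Zymosan_cGAMP). The corresponding Ifit3 ranges were 135 CPM (Ctrl) to 1207 CPM (HMW_Zymosan_CpGB) and 1391 CPM (PAM_Zymosan_SeV) to 4111 CPM (HMW_SeV). Gm14446 did not split cleanly: conditions without the 3 ligands reached 319 CPM, and LPS_Zymosan_cGAMP was at only 212 CPM. Neighbouring conditions in these orders mostly overlapped. Of 63 steps from one condition to the next, the libraries were fully apart at 3 for Ifit1, 1 for Ifit2, 1 for Ifit3 and none for Gm14446. The 3 Ifit1 steps were Ctrl to PAM_Zymosan, HMW to HMW_Zymosan and PAM_HMW_cGAMP to PAM_cGAMP_CpGB. The step between the 2 blocks of conditions was apart for Ifit2 but overlapped for Ifit1 and Ifit3, so the border is not resolved for these 2 genes, nor are most ranks.

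The members differed in how their levels ran with the number of these ligands. The median condition mean of Ifit1 was 4596 CPM with 1 of LPS, SeV and cGAMP, 5021 CPM with 2 and 5346 CPM with all 3, and that of Ifit2 was 3095, 3503 and 3638 CPM. Ifit3 went 2313, 2274 and 2149 CPM and Gm14446 593, 551 and 341 CPM, and the triplet with all 3 ligands is 1 condition. These medians describe the conditions and were not tested.

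**Figure D2:**
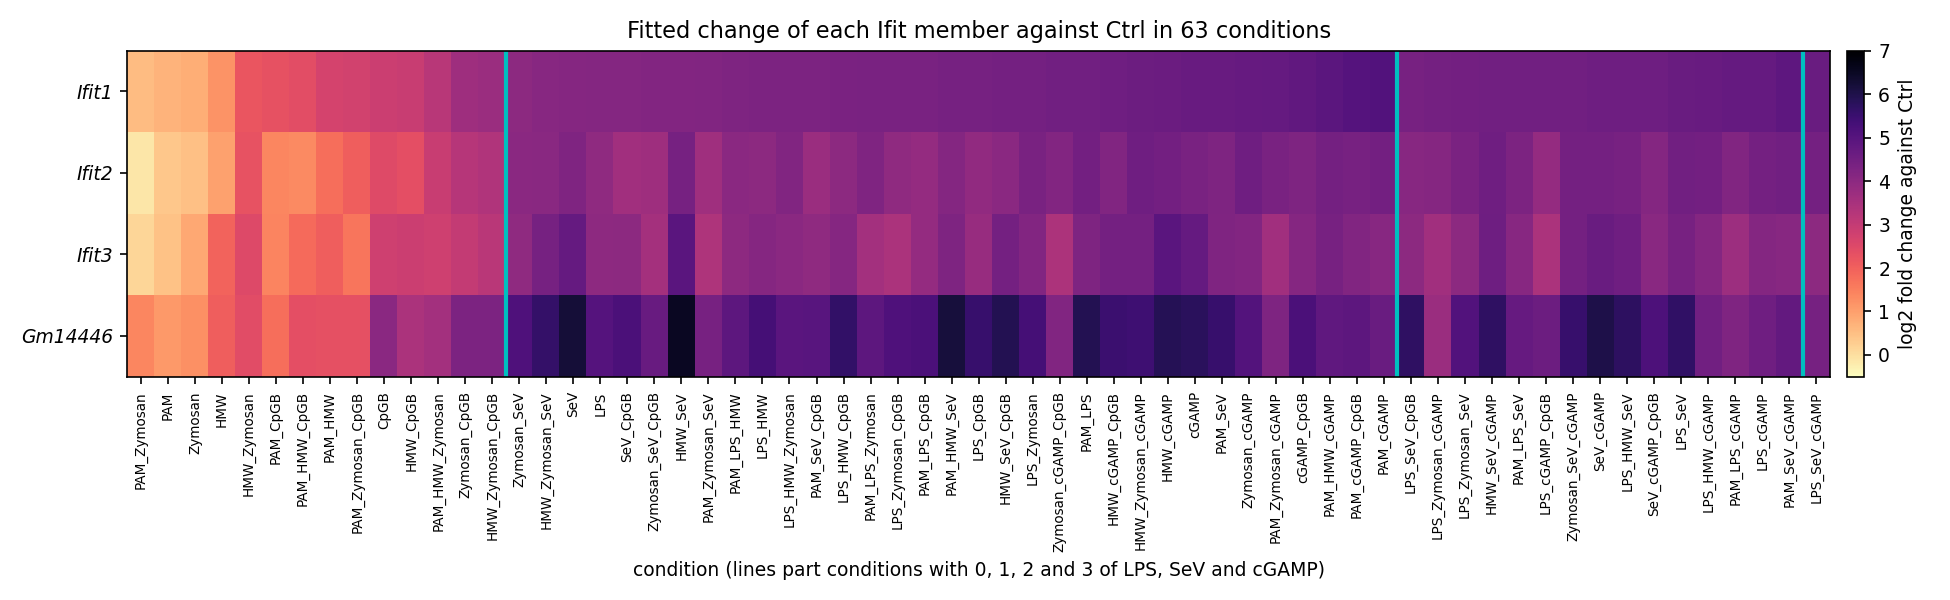
Fitted log2 fold change against Ctrl (colour) of the 4 members (lines) in 63 conditions (columns), grouped by how many of LPS, SeV and cGAMP they hold and ordered by Ifit1 within a group. The pale columns on the left lack all of them.

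Against Ctrl, 215 of 224 comparisons of a combination were called, all higher. Among pairs these were 20 of 21 for each of Ifit1, Ifit2 and Ifit3 and 17 for Gm14446, against 13.7% of all gene tests in pairs. Among 35 triplets they were all 35 for Ifit1, Ifit2 and Ifit3 and 33 for Gm14446, against 15.7%. PAM_Zymosan was the pair not called for the first 3, with Ifit1 at 358, 302 and 289.7 CPM and Ifit3 at 168, 88.4 and 175 CPM.

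Among pairs of the weak ligands, those with HMW exceeded both singles in Ifit1 and Ifit2 (Ifit2 in PAM_HMW by 0.79, adjusted p = 0.0273, under the fold threshold). That Ifit2 value was 1.18 and a call without replicate 2, and after thinning to equal totals the change with PAM added to HMW was 0.73 and did not pass (adjusted p = 0.0508). PAM_Zymosan did not (smallest log2 differences -0.16 and -0.49, with adjusted p-values of 1). Ifit1 stood at 1425, 1579 and 1128 CPM in PAM_HMW, above every library of PAM (at most 382 CPM) and of HMW (at most 677 CPM). Ifit1 exceeded the higher single ligand by 1.49 on the log2 scale (adjusted p = 4.04e-13, edgeR's quasi-likelihood test on the weaker of both differences). In HMW_Zymosan it stood at 795, 809 and 1303 CPM, above both singles by 1.02 (adjusted p = 4.86e-06). Ifit2 in that pair was at 509, 791 and 1047 CPM, above both by 1.28 (adjusted p = 4.86e-06), with 1 library inside the HMW range. Without HMW_Zymosan replicate 3, an alternative added after seeing the data, the Ifit1 value was 0.73 (adjusted p = 0.0536) and the Ifit2 value 0.997 (adjusted p = 0.0235), both under the fold threshold. Without replicate 3 of every condition they were 0.53 and 0.72, and after thinning to equal totals 0.60 and 0.68, and none of these passed the adjusted p (0.828 to 1). The Ifit1 value also ended under the fold threshold with RLE factors (0.98), in DESeq2 (0.97) and by library size alone (0.85). These were the 3 calls of a pair above both singles among 84, where 0.336% of all gene tests were called. Ifit3 in PAM_HMW, at 597, 648 and 409 CPM, overlapped HMW and exceeded it by 0.08 (adjusted p = 1). With the adjusted p alone, 9 pairs passed (0.746% of all gene tests). One of these, Gm14446 in PAM_LPS at 0.88 (adjusted p = 0.0192), was 1.11 and a call without PAM_LPS replicate 1. Of 140 triplets no member exceeded or undercut all 3 pairs by the rule in edgeR's test, against 0.0109% of all gene tests. With the adjusted p alone 2 passed (0.0266% of all gene tests), Ifit1 and Ifit2 in PAM_HMW_Zymosan, and neither did without its replicate 1. Without replicate 3 of every condition that Ifit2 value was 1.04 and a call.

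HMW was the partner these rises shared. Added to PAM, it raised Ifit1 by 1.98 (SE 0.17, adjusted p = 2.81e-20), Ifit2 by 1.40 (SE 0.24, adjusted p = 1.66e-06) and Ifit3 by 1.58 (SE 0.26, adjusted p = 6.85e-07). Added to Zymosan, it raised them by 1.43 (SE 0.18, adjusted p = 1.06e-10), 1.77 (SE 0.23, adjusted p = 4.19e-10) and 1.65 (SE 0.24, adjusted p = 3.12e-08). In both cases all HMW libraries lay above those without it. Without replicate 3 the Ifit1 rise on Zymosan was 0.79 and did not pass, and after thinning it was 0.86, under the fold threshold. Added to PAM_Zymosan, it raised Ifit1 by 2.69 (SE 0.18, adjusted p = 1.49e-31), Ifit2 by 3.04 (SE 0.24, adjusted p = 1.67e-24) and Ifit3 by 2.68 (SE 0.27, adjusted p = 1.75e-17). In PAM_HMW_Zymosan the Ifit1 libraries read 2945, 1238 and 1848 CPM and the Ifit3 libraries 1705, 424 and 714 CPM, the first library being high for every member. Without it the rises were 2.34, 2.48 and 1.99. Gm14446 rose by 2.20 (SE 0.52, adjusted p = 0.000809) there and by 0.72, with no call, without that library. On SeV, HMW moved Ifit1 by 0.06 (SE 0.14, adjusted p = 0.972), and on cGAMP by -0.05 (SE 0.13, adjusted p = 0.999).

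**Figure D3:**
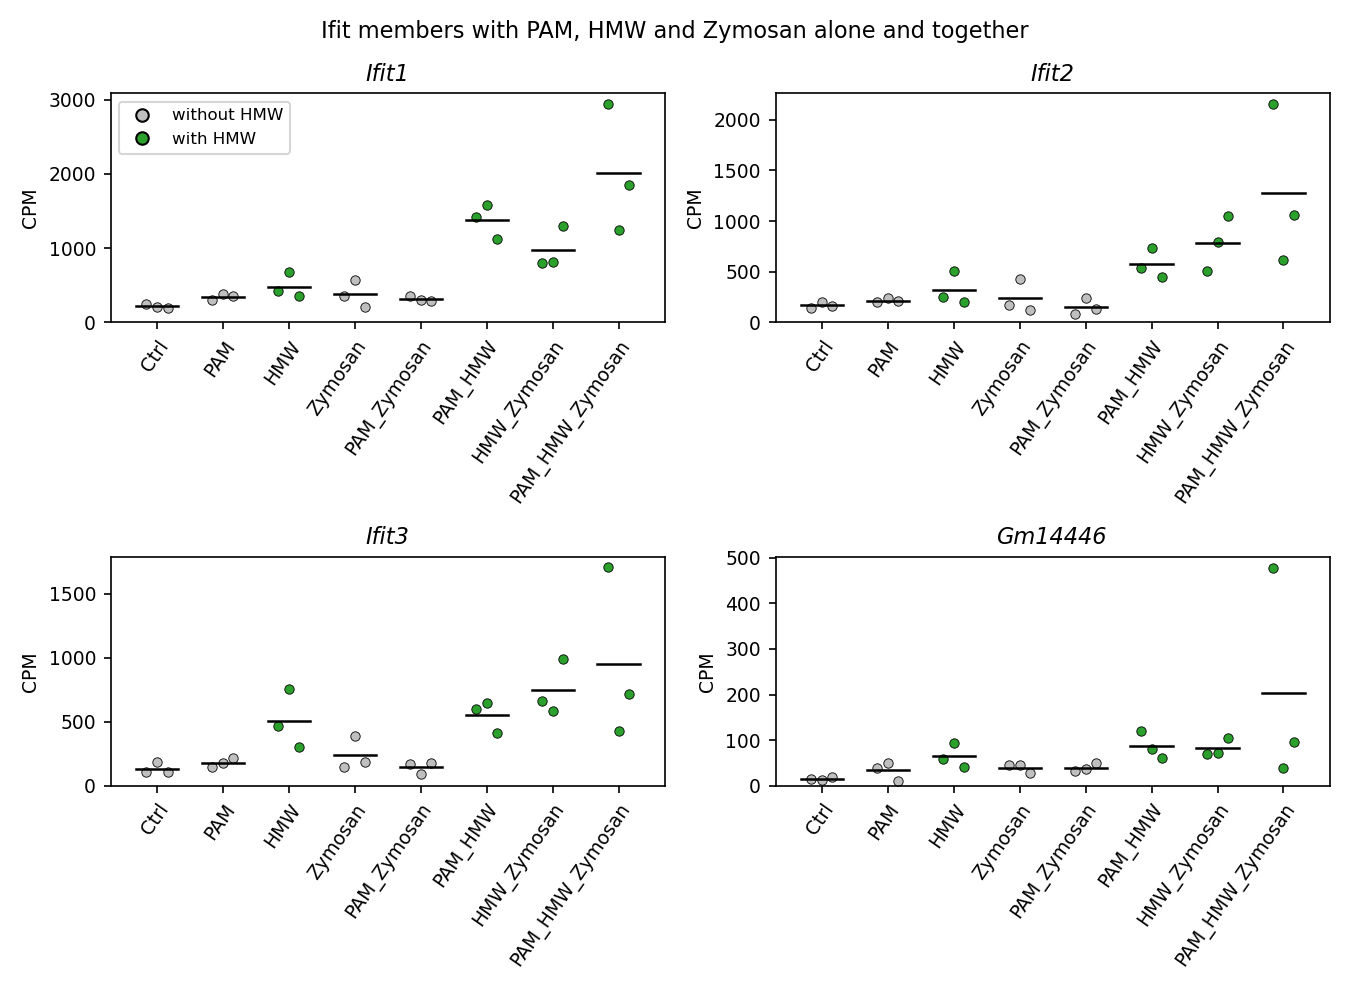
CPM of each member (vertical axis, linear from 0) with PAM, HMW and Zymosan alone and together; points are libraries, bars are means of 3, and green marks conditions with HMW. Ifit1 in PAM_HMW lies above all libraries of PAM and HMW, and replicate 1 of PAM_HMW_Zymosan is the high point in each panel.

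Pairs of strong ligands fell short of the sum of their separate log2 changes. An interaction here is the pair minus both singles plus Ctrl, called where the adjusted p was under 0.05, whatever its size. Calls below the sum numbered 11 of 21 for Ifit1, 7 for Ifit2, 12 for Ifit3 and 6 for Gm14446, against 3.5% of all gene tests, and calls above it numbered 0, against 1.08%. For SeV_cGAMP the interaction was -4.24 (SE 0.25, adjusted p = 1.12e-37) for Ifit1, -4.14 (SE 0.31, adjusted p = 6.55e-27) for Ifit2, -4.80 (SE 0.34, adjusted p = 6.47e-30) for Ifit3 and -5.98 (SE 0.67, adjusted p = 2.98e-14) for Gm14446. For LPS_cGAMP it was -4.08, -3.85, -4.55 and -6.27 in the same order of genes, and for LPS_SeV -3.64, -3.68, -4.31 and -5.57. All 6 pairs among LPS, SeV, cGAMP and CpGB were called for all 4 members. Every one of these values uses the same 3 Ctrl libraries. Pairs of HMW with LPS, SeV, cGAMP and CpGB were called below the sum for Ifit1 (-1.05 to -1.23) and Ifit3 (-1.72 to -1.91), as was Zymosan_SeV for Ifit3 (-1.66). Without replicate 2, which removes the high HMW library, the only one of these to pass was Ifit3 in HMW_CpGB. After thinning, Ifit1 passed only in HMW_cGAMP, and Ifit3 in Zymosan_SeV did not pass. Without replicate 3, Ifit1 in LPS_HMW, HMW_SeV and HMW_CpGB and Ifit3 in Zymosan_SeV did not pass. With RLE factors, Ifit1 in LPS_HMW and Ifit3 in Zymosan_SeV did not. PAM_CpGB was also below the sum, at -1.25 (SE 0.31, adjusted p = 0.00156) for Ifit1 and -1.82 (SE 0.46, adjusted p = 0.00263) for Ifit3, the Ifit3 value not passing after thinning or without replicate 3, whereas Ifit1 in PAM_HMW was at 0.80 (SE 0.32, adjusted p = 0.643).

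The next question was what each ligand did when added to a background of 1 or 2 others, 21 backgrounds a ligand and 588 comparisons over the members. These comparisons need no Ctrl, but neighbouring ones share libraries. Of the 588, 139 were called higher and 25 lower. LPS, SeV and cGAMP gave most of the rises. LPS was called higher on 9 backgrounds for Ifit1, 9 for Ifit2, 8 for Ifit3 and 9 for Gm14446 (5.69% of all gene tests), SeV on 9 for each member (2.57%) and cGAMP on 9 for each (5.36%). CpGB gave 5, 5, 2 and 3 rises in the same order (2.26%), HMW 3, 3, 3 and 1 (0.419%), PAM 2, 0, 0 and 1 (2.43%) and Zymosan 1, 2, 0 and 1 (2.42%). Without PAM_HMW_Zymosan replicate 1 the HMW counts were 3, 3, 3 and 0, the PAM counts 1, 0, 0 and 0 and the Zymosan counts 1, 1, 0 and 0, and without HMW_Zymosan replicate 3 the Zymosan counts were 0, 1, 0 and 1. On a background that already held LPS, SeV or cGAMP, no member was called higher with any ligand by the rule with the fold threshold, though without PAM_LPS replicate 1 Gm14446 was with PAM on LPS (1.11). With the adjusted p alone some were, among them the PAM results below.

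Of the 25 falls, 19 were in Gm14446, 3 in Ifit3 and 3 in Ifit2. LPS lowered Gm14446 on 4 backgrounds and no other member (3.5% of all gene tests), cGAMP on 3 (2.63%), Zymosan on 4 (0.853%), and SeV (0.749%), HMW (0.0474%) and CpGB (1.18%) on 1 each. The SeV and HMW falls of Gm14446 were both on PAM_LPS, at -1.21 and -1.05 (-1.48 and -1.28 without PAM_LPS replicate 1), and neither passed in DESeq2, after thinning, without replicate 2 or without replicate 3. Nor did the Zymosan falls on PAM_LPS and cGAMP_CpGB. Of the 19 Gm14446 falls, 15 stayed called in DESeq2, 13 after thinning, 10 without replicate 2 and 13 without replicate 3, and all 19 stayed below 0 in each. Of the 3 Ifit2 falls 1 stayed called without replicate 3, and of the 3 Ifit3 falls 2 did. PAM lowered Gm14446 on 5 backgrounds, Ifit3 on 3 and Ifit2 on 3, and Ifit1 on none (1.47%). Without PAM_HMW_SeV replicate 3, PAM also lowered Gm14446 on HMW_SeV (-1.35, against -0.34 with it). Gm14446 changed by -1.24 (SE 0.27, adjusted p = 0.000171) when LPS was added to cGAMP, where its libraries went from 807, 976 and 878 CPM to 411, 291 and 419.7 CPM without overlap. Ifit1 in the same pair of conditions was 5445 ± 377 and 5700.1 ± 163 CPM (SD, n = 3), a change of 0.07 (SE 0.13, adjusted p = 0.819). Zymosan added to SeV lowered Gm14446 from 1222 to 722, 398 and 529 CPM (-1.09, SE 0.26, adjusted p = 0.00169). Ifit3 went there to 2481, 1253 and 2095 CPM (-0.80, SE 0.18, adjusted p = 0.000535), below every SeV library, and Ifit1 to 3787, 3280.5 and 3292 CPM (-0.12, SE 0.14, adjusted p = 0.753). Replicate 2 of Zymosan_SeV was the shallowest library of the series, and without replicate 2 the Ifit3 change was -0.54 and did not pass, and that of Gm14446 was -0.91, under the fold threshold. With CpGB, in contrast, Zymosan gave 0.82 (SE 0.14, adjusted p = 2.44e-06) for Ifit1 and 0.75 (SE 0.18, adjusted p = 0.00125) for Ifit2, passing the adjusted p but not the fold threshold, and 0.20 (SE 0.19, adjusted p = 0.652) for Ifit3. Without replicate 3 the first 2 were 0.55 and 0.61 and did not pass, nor did Ifit2 after thinning (0.47). Without replicate 2 the Ifit1 change was 1.11 and a call.

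With the adjusted p alone more of these changes passed. PAM was then higher on 4 backgrounds and lower on 3 for Ifit1, 3 and 3 for Ifit2, 0 and 9 for Ifit3 and 2 and 6 for Gm14446 (3.95% of all gene tests higher, 2.35% lower). Zymosan was higher on 4 and lower on 1 for Ifit1, 4 and 1 for Ifit2, 1 and 7 for Ifit3 and 1 and 5 for Gm14446 (3.91% higher, 1.91% lower). CpGB was lower on 0, 3, 8 and 2 backgrounds (1.99%), LPS on 0, 0, 5 and 5 (5.4%) and cGAMP on 0, 0, 2 and 5 (4.22%), each in the order Ifit1, Ifit2, Ifit3, Gm14446. These counts moved with the processing. Over 9 alternatives, Ifit3 falls numbered 5 to 11 with PAM, 2 to 8 with Zymosan and 2 to 8 with CpGB. They numbered 2 to 7 with LPS and 0 to 2 with cGAMP. Each count was lowest without replicate 3, and that with Zymosan was as low without replicate 2. The cGAMP count was 0 also in DESeq2, with RLE factors, after thinning and without replicate 2. Gm14446 falls numbered 4 to 10, 2 to 7, 1 to 6, 3 to 7 and 3 to 7 in the same order of ligands. Zymosan rises numbered 1 to 5 for Ifit1 and 2 to 5 for Ifit2, lowest without replicate 3 and for Ifit2 as low after thinning. PAM rises and falls numbered 2 to 4 and 1 to 3 for Ifit1 and 1 to 3 and 1 to 5 for Ifit2.

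**Figure D4:**
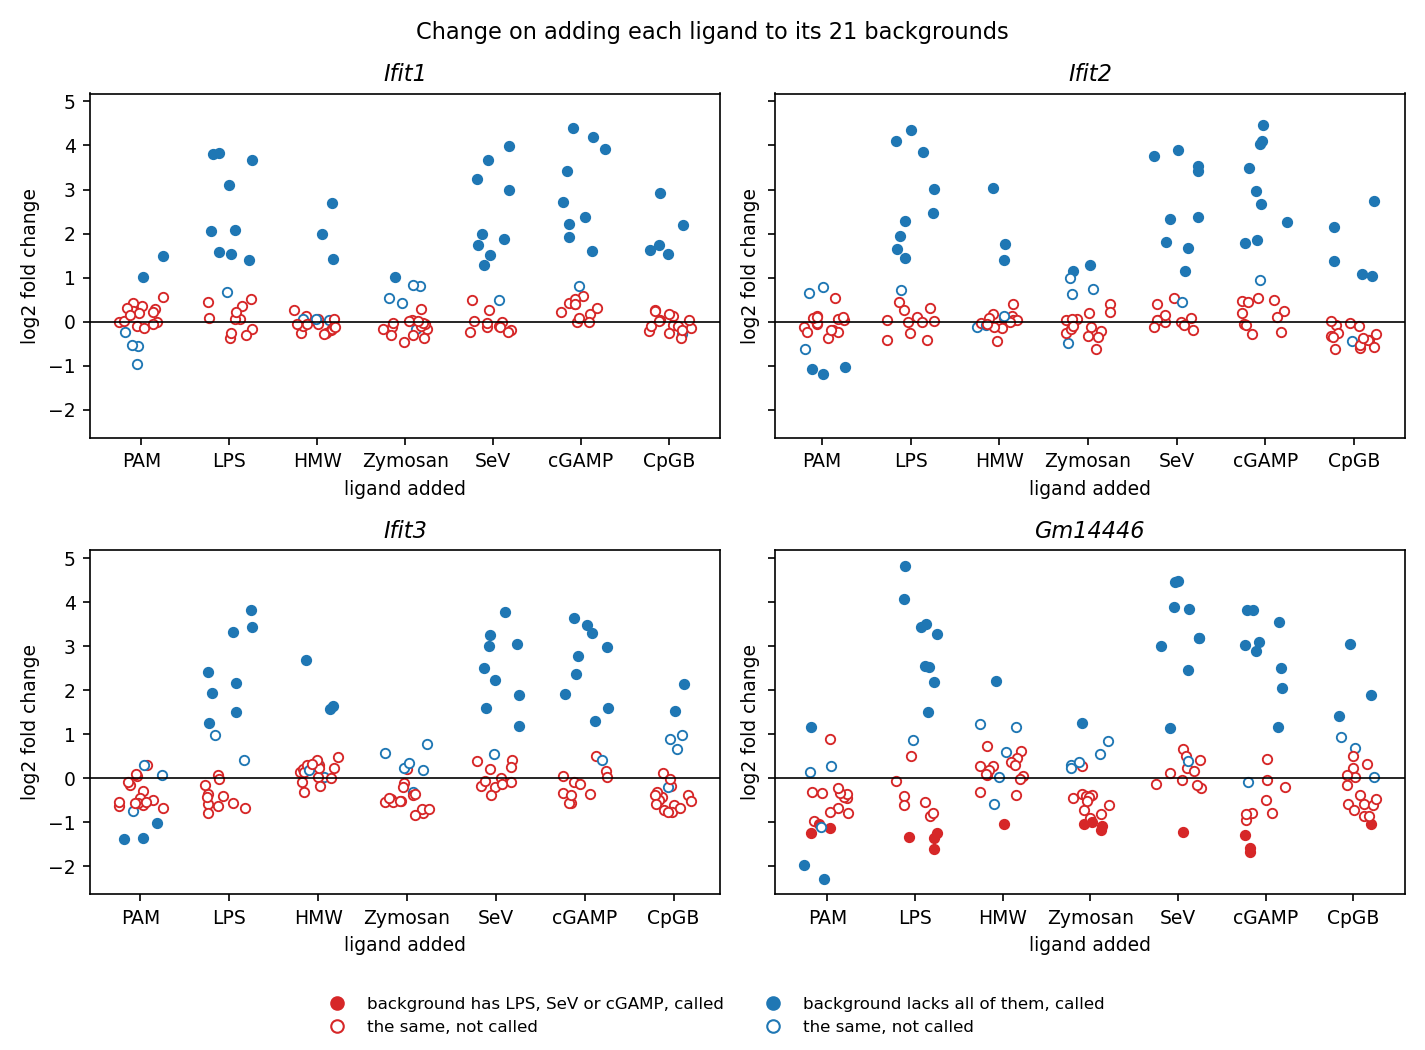
Log2 fold change on adding each ligand (horizontal axis) to its 21 backgrounds, 1 point a background; red marks backgrounds with LPS, SeV or cGAMP, and filled points passed the adjusted p and fold threshold. Filled red points lie only below 0, and all are of Gm14446.

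Added to cGAMP or SeV, PAM left Ifit1 higher and Ifit3 lower. With cGAMP, Ifit1 rose from 5071, 5439.9 and 5825 CPM to 6653, 7957 and 7273 CPM with PAM, the highest condition of the series for this gene. Ifit3 went the other way, from 3796, 3640.2 and 3161 CPM to 2329.5, 2427 and 2044 CPM, and Gm14446 from 807, 976 and 878 CPM to 353, 389.6 and 465 CPM. In all 3 genes the libraries with and without PAM did not overlap. The changes were 0.42 (SE 0.13, adjusted p = 0.0159) for Ifit1, -0.64 (SE 0.17, adjusted p = 0.00376) for Ifit3 and -1.14 (SE 0.27, adjusted p = 0.000893) for Gm14446, while Ifit2 was at 0.13 (SE 0.16, adjusted p = 0.697). By the adjusted p alone, 8.11% of all genes rose and 4.62% fell in this comparison. The Ifit1 rise depended on scaling: it was 0.34 with RLE factors, 0.34 in DESeq2, 0.32 after thinning to equal totals and 0.15 by library size alone, and passed in none of them, nor with any 1 replicate number left out. Library-size scaling moves all genes in this comparison by -0.27, from a median of 0.01. The Ifit3 fall lay between -0.91 and -0.61 and the Gm14446 fall between -1.41 and -1.07 under all alternatives.

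With SeV the pattern was the same for Ifit1 and Ifit3. Ifit1 went from 4119, 3625 and 3536 CPM to 5256, 5914 and 5334 CPM with PAM, and Ifit3 from 3383, 3794 and 3386 CPM to 2059, 2806 and 2579 CPM, both without overlap. The changes were 0.55 (SE 0.13, adjusted p = 0.000967) and -0.50 (SE 0.17, adjusted p = 0.0365), and that of Ifit2 was 0.03 (SE 0.16, adjusted p = 0.951). The Ifit3 change did not pass without replicate 1 (-0.43) or replicate 3 (-0.56). By library size alone, which shifts all genes here by -0.26, the Ifit1 change was 0.29 and did not pass. Gm14446, at 592, 879.8 and 785 CPM with PAM, lay below every SeV library, with -0.67 (SE 0.24, adjusted p = 0.0501). On larger backgrounds PAM changed Ifit3 by -0.68 (SE 0.16, adjusted p = 0.000605) on HMW_SeV, -0.55 (SE 0.16, adjusted p = 0.00927) on HMW_cGAMP and -0.55 (SE 0.17, adjusted p = 0.0143) on SeV_cGAMP, the last not passing without replicate 3 (-0.48).

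With CpGB all members were lower when PAM was present. Ifit1 went from 1174, 2027 and 1443 CPM to 897, 1229 and 1056 CPM, with 1 library overlapping. Ifit2 went to 372, 570.1 and 376 CPM, Ifit3 to 363, 429 and 280.0 CPM and Gm14446 to 19.1, 96.3 and 40.0 CPM, none of them overlapping CpGB alone. The changes were -0.56 (SE 0.16, adjusted p = 0.0273) for Ifit1, -1.07 (SE 0.22, adjusted p = 0.000379) for Ifit2, -1.38 (SE 0.24, adjusted p = 1.32e-05) for Ifit3 and -2.28 (SE 0.50, adjusted p = 0.00119) for Gm14446. Without replicate 3 the last 3 were -0.85, -1.07 and -1.59 and did not pass. The Ifit1 change did not pass without replicate 2 (-0.48), without replicate 3 (-0.63) or after thinning (-0.61). By the adjusted p alone, 0.572% of all genes rose and 1.27% fell in this comparison. With LPS the direction differed again, with Ifit2 at 0.53 (SE 0.16, adjusted p = 0.0303) and Gm14446 at 0.88 (SE 0.24, adjusted p = 0.0147). PAM_LPS replicate 1 was low for both (410.0, 1111 and 1259 CPM for Gm14446), and without it the Gm14446 change was 1.11. Neither change passed by library size alone (0.34 and 0.69), in DESeq2 (0.47 and 0.75), after thinning (0.36 and 0.45), without replicate 2 (0.36 and 0.72) or without replicate 3 (0.45 and 0.55), and that of Ifit2 did not with RLE factors (0.47).

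**Figure D5:**
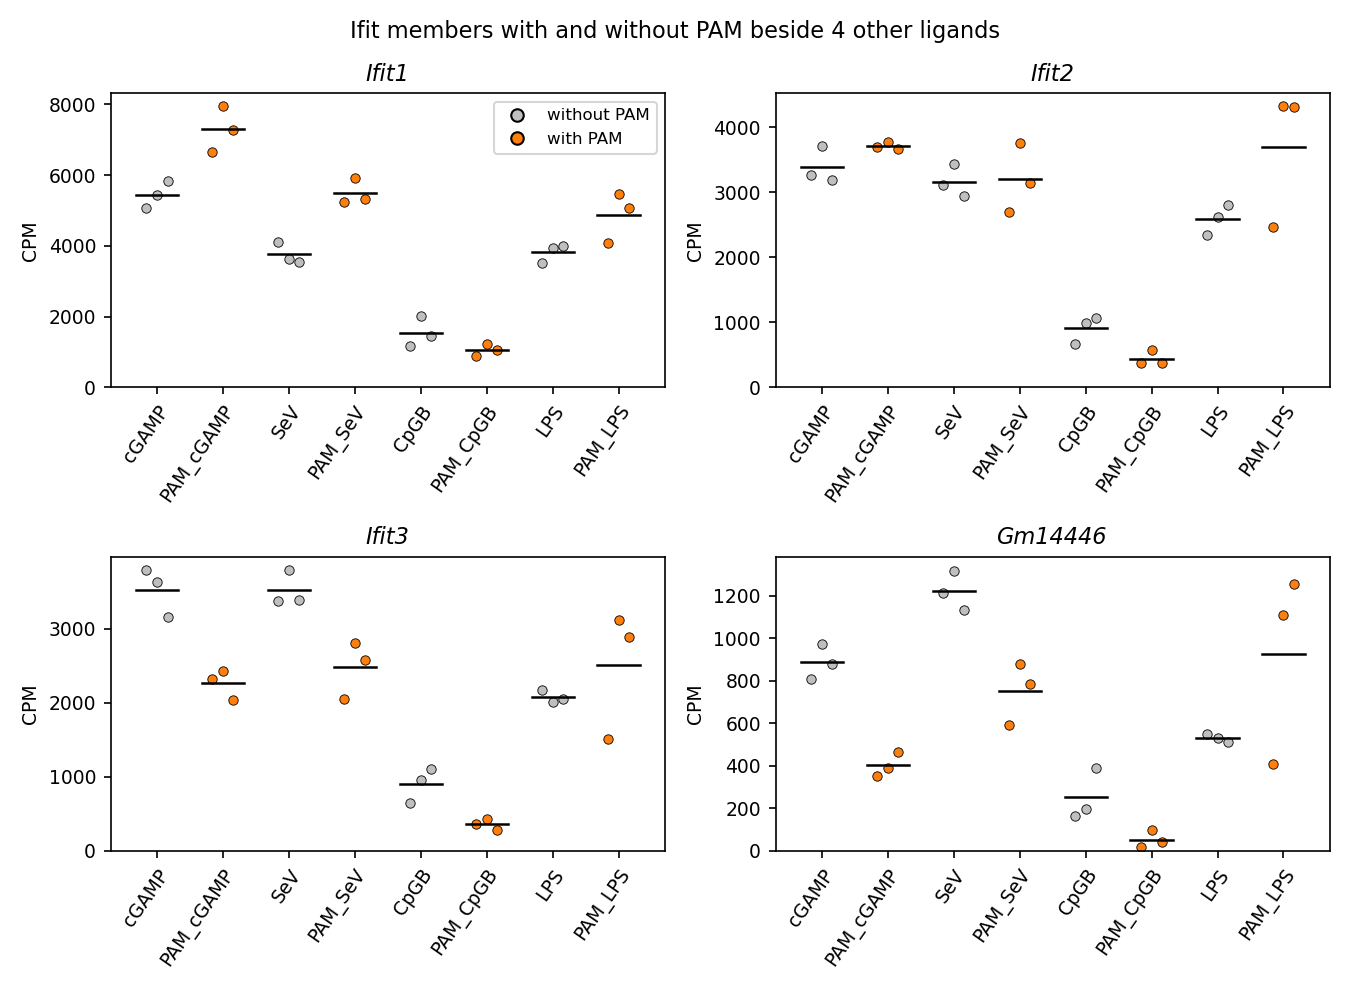
CPM of each member (vertical axis, linear from 0) with cGAMP, SeV, CpGB and LPS, each without PAM (grey) and with it (orange); points are libraries and bars are means of 3. With cGAMP and SeV, orange points lie above grey for Ifit1 and below grey for Ifit3 and Gm14446.

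Other antiviral targets were read in the same comparisons. By the adjusted p alone, 8.11% of all genes rose and 4.62% fell with PAM on cGAMP. With PAM on CpGB 0.572% rose and 1.27% fell. With PAM on cGAMP, 3 of the 15 targets passed the adjusted p upward and none downward, at a median of 0.28: Isg15, a ubiquitin-like modifier (0.70, SE 0.14, adjusted p = 5.04e-05), Oasl2 (0.58, SE 0.14, adjusted p = 0.00154) and Rsad2 (0.52, SE 0.14, adjusted p = 0.00521). By library size alone 1 of the 15 passed upward and 1 downward, at a median of 0.01, so these counts depend on scaling. Socs3 rose by 2.72 (SE 0.25, adjusted p = 1.72e-20). With PAM on CpGB, 8 of the 15 fell and none rose, at a median of -0.79 (5 fell without replicate 2, 1 without replicate 3 and 4 after thinning), among them Isg20, an exonuclease (-1.82, SE 0.40, adjusted p = 0.0011), Mx2 (-1.33, SE 0.29, adjusted p = 0.0011) and Rsad2 (-0.82, SE 0.17, adjusted p = 0.00044). Irf7 changed there by -0.95 (SE 0.18, adjusted p = 0.000185) and Stat2 by -0.67 (SE 0.20, adjusted p = 0.0432).

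Ratios between members within a library do not depend on scaling. The log2 ratio of Ifit1 to Ifit3 counts was 0.63 ± 0.24 (SD, n = 3) with cGAMP and 1.68 ± 0.16 with PAM_cGAMP, and 0.09 ± 0.18 with SeV and 1.16 ± 0.17 with PAM_SeV. With HMW it was -0.04 ± 0.21 and with PAM_HMW 1.33 ± 0.11. The libraries did not overlap in any of these 3 comparisons, each with an exact two-sided permutation p of 0.1, the smallest that 3 against 3 allows, and 0.129 after adjustment over 18 such tests. With PAM added this ratio was higher on 20 of 21 backgrounds (median 0.50, from -0.11 to 1.37), the Ifit1 to Ifit2 ratio on 19 (median 0.23) and the Ifit1 to Gm14446 ratio on 19 (median 0.85). Ifit1 to Ifit3 was higher on 20 with Zymosan added (median 0.36), on 18 with CpGB (median 0.55), on 18 with LPS (median 0.32) and on 17 with cGAMP (median 0.41), against 9 with SeV (median -0.03) and 3 with HMW (median -0.18). The ratio of Ifit2 to Ifit3 was higher with LPS on all 21 (median 0.42). The 21 backgrounds share libraries, so these counts describe the series and carry no test.

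Across the 64 condition means of log2 CPM, the members followed each other with Pearson's r of 0.98 for Ifit1 and Ifit2, 0.96 for Ifit2 and Ifit3, 0.96 for Ifit3 and Gm14446, 0.93 for Ifit1 and Ifit3 and 0.87 for Ifit1 and Gm14446. Over the 56 combinations alone these were 0.97, 0.95, 0.93, 0.90 and 0.80. The points share the libraries and their depth, and a few strong ligands set most of the range, so the values are descriptions. Among all tested genes, those most like Ifit1 were Mx2 and Ifi47 (both 0.98), Irgm1 (0.98), Ifit2 and Ifih1 (0.98). For Ifit2 they were Rsad2 (0.99), Cmpk2 (0.99), Pyhin1 (0.98), Ifit1 and Ifi47 (0.98). Ifit3 was most like I830012O16Rik (0.98), then Samhd1 (0.96), 1600014C10Rik (0.96), Ifit2 and Pyhin1 (0.96). Gm14446 was most like Serpina3g (0.96), then Ifit3 (0.96), I830012O16Rik (0.95), Pydc3 (0.94) and Gbp4 (0.94). By Spearman's rank correlation 1, 3, 2 and 2 of the 5 stayed among the 5 most alike, in the order Ifit1, Ifit2, Ifit3, Gm14446.

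I830012O16Rik, the near copy of Ifit3, had its own row and 3 counts in Ctrl. Its means were 623 ± 85.5 CPM with SeV and 602 ± 108 CPM with cGAMP, and 263 ± 36.6 CPM with PAM_cGAMP (SD, n = 3). PAM thus changed it on cGAMP by -1.17 (SE 0.22, adjusted p = 8.55e-06) and on SeV by -0.83 (SE 0.21, adjusted p = 0.00147). Both genes moved the same way, and reads shared between them could not be separated. With the counts of both summed, an alternative added after seeing the data, the log2 ratio of Ifit1 to the sum was 0.68 with LPS, -0.14 with SeV, 0.96 with PAM_SeV and -0.29 with HMW_SeV. 2010002M12Rik had 134 counts over all libraries and was not tested.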

How the data were processed

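Per the labels' protocols, the authors barcoded and pooled cDNA made with template switching and sequenced it after tagmentation. The deposited table gives, for every gene symbol, the count of unique molecular identifiers, not normalized. The submitters' processing notes name BWA 0.7.15 and mm10; the annotation, the handling of reads with several matches and the use of strand are not given in the sources used here. Counts were fitted in R 4.3.3 with edgeR 4.0.16: filterByExpr by group (4720 of 23481 genes, 95.7% of counts), TMM factors, and a quasi-likelihood model with 1 coefficient for each of 64 groups (128 residual degrees of freedom, common biological coefficient of variation 10.3%). All p-values from it were adjusted by Benjamini-Hochberg over the 4720 genes within a contrast. A call needed an adjusted p under 0.05 and a log2 fold change of 1 or more in size; interactions needed the adjusted p only. A pair above both singles took the smaller difference and the larger p. CPM use TMM-scaled totals, and ratios added 1 count. Named genes were the members, the list genes given as examples of their role, and the 5 genes most alike. The members and lists were chosen with earlier results of these data known, and no set test was run. Alternatives were RLE factors, library size alone, no filter, DESeq2 1.42.0, thinning, replicate blocks and leaving out replicates. The fitting code was also run on simulated counts of Ctrl and the single ligands, a check of the code and not of these results. Totals were 46564 to 610234 counts a library, and the low Ctrl totals limit precision for genes low in Ctrl.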

Additional observations from a re-analysis of the deposited data

Results flagged for a closer look

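By the rule with the fold threshold, Gm14446 was the member called higher on at least 1 background and lower on at least 1 other with the same ligand, and this was so for each of the 7 ligands. Among all 4720 genes tested, 3.24% were called both ways with LPS, 1.82% with cGAMP, 0.742% with CpGB, 0.72% with PAM, 0.614% with Zymosan, 0.169% with SeV and 0.0424% with HMW, and 1 gene, Gm14446, with all 7. With the adjusted p of edgeR's quasi-likelihood test alone the other members also had calls both ways, such as Ifit1 with PAM (4 higher, 3 lower), Ifit2 with PAM (3 and 3) and Ifit3 with LPS (9 and 5), CpGB (4 and 8) and cGAMP (9 and 2). Without replicate 3 the falls of Ifit3 with these 3 ligands numbered 2, 2 and 0. Those with cGAMP also numbered 0 in DESeq2, with RLE factors, after thinning and without replicate 2. The backgrounds below gave the highest and lowest Gm14446 values of 21, so each difference is a description and no test of it is given. LPS gave 4.83 on PAM and -1.61 on SeV_cGAMP, a difference of 6.44. SeV gave 4.48 on HMW and -1.21 on PAM_LPS, a difference of 5.68. For cGAMP the values were 3.83 on Zymosan and -1.68 on PAM_LPS, a difference of 5.51, and for CpGB they were 3.05 on Zymosan and -1.04 on SeV, a difference of 4.08. PAM gave 1.17 on HMW_Zymosan and -2.28 on CpGB, a difference of 3.45. With HMW it was 2.20 on PAM_Zymosan and -1.05 on PAM_LPS, a difference of 3.25, and with Zymosan 1.26 on PAM_HMW and -1.17 on PAM_SeV, a difference of 2.43. The rises of these last 3 rest on PAM_HMW_Zymosan replicate 1, which held 108 Gm14446 counts against 10 and 26 in the other replicates. Without it they were -0.32 for PAM, 0.72 for HMW and -0.23 for Zymosan, and none was called. For SeV and HMW the fall on PAM_LPS was the one fall called. Neither was called in DESeq2 (-1.14 and -0.96), after thinning (-1.24 and -1.10), without replicate 2 (-0.99 and -0.86) or without replicate 3 (-0.96 and -0.78). Without PAM_LPS replicate 1, the falls on PAM_LPS were -1.48 with SeV, -1.28 with HMW and -1.92 with cGAMP, all called.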

How the results depend on the processing

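The counts of calls for single ligands against Ctrl (18), combinations against Ctrl (215), differences between single ligands (61), rises on adding a ligand (139) and interactions (36) stayed within 1.5 times under every alternative run. Leaving out 1 replicate number at a time gave 17 to 20, 214 to 216, 60 to 62, 131 to 143 and 28 to 36. Falls on adding a ligand numbered 25, with 67 by the adjusted p alone and 14 to 28 with a replicate number left out, the lowest without replicate 2. Pairs above both singles numbered 3, with 1 after thinning to equal totals, 9 by the adjusted p alone and 1 to 6 with a replicate left out. Triplets beyond all their pairs numbered 0, with 1 without the filter on low counts, 2 by the adjusted p alone and 0 to 1 with a replicate left out. The cause was not tested. Alternatives for single values were read only for a named set of them, among it 105 of the 588 additions. Among these, directions turned in 6 cases, none of which was called after the turn. With a replicate left out, Ifit2 with Zymosan ran from -0.26 (without Zymosan replicate 2; -0.12 without replicate 2) to 0.96. Ifit2 with PAM added to HMW_Zymosan ran from -0.12 (without replicate 1) to 1.05, and Gm14446 there from -0.41 (without replicate 1; -0.32 without PAM_HMW_Zymosan replicate 1) to 1.79. Gm14446 with Zymosan added to PAM_HMW ran from -0.23 (without the same library) to 1.79. The Ctrl libraries, with 4 Gm14446 counts in all, limit every fold change of that gene against Ctrl.

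Whether replicate numbers pair the libraries was not settled. Deviations from the group mean correlated at 0.00828 on average for same-numbered libraries and at -0.00413 for different numbers. Deviations within a group sum to 0, so the second value follows from the first and is no separate comparison. In 0 of 63 groups did all 3 exceed 0.1 with Ctrl, and in 8 all 3 libraries correlated best with the Ctrl library of their number. Low counts also limit such correlations. With the replicate block the counts were 18, 215, 61, 139, 24 falls, 36 interactions, 3 pairs and 0 triplets.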
